A study of Rattus norvegicus with 8 samples.

Results

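The genes described here encode proteins that sense DNA damage and repair it. They are 36 genes chosen by name from the repair pathways, and 35 of them were found among the 14217 genes that the array named by a single symbol. The remaining gene, Atm, is not analysed here. RNA was measured on 8 Affymetrix arrays, each with RNA of the isolated heart of a male Wistar rat of about 300 g. Hearts were perfused through the aorta for 2 h in a Langendorff apparatus whose perfusate does not recirculate, without drug (4 control hearts) or with 2 µM doxorubicin (4 hearts). Both groups shared the excision and the perfusion, and no unperfused heart was analysed here. The RNA came from whole heart tissue, so fewer cells of a type and less RNA per cell cannot be told apart. Values are log2 levels made with RMA, a method that puts the arrays on a common scale, and each gene was read from its probe set with the highest mean.

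Doxorubicin is an anthracycline that slips between DNA bases and traps topoisomerase II on cut DNA, which leaves double-strand breaks. Such breaks are bound by the MRN complex (Mre11, Rad50 and Nbn), which activates the kinase ATM, and are joined either end to end or by copying an intact sister chromatid. Oxidized bases, bulky adducts and mispaired bases are handled by base excision, nucleotide excision and mismatch repair. Heart muscle cells of the adult divide rarely, and repair by copying a sister chromatid depends on replicated DNA.

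After 2 h of doxorubicin most of these genes, like most genes on the array, had a difference whose 95% interval lay within 1.5-fold. Nbn rose 1.53-fold (95% interval 1.26 to 1.85), none fell at an adjusted p under 0.05 in limma, and 34 did not pass the test. Below an unadjusted p of 0.05 lay 4 members with a positive difference and 0 with a negative one. The call of Nbn is 1 of 35 (2.86%), where 2.97% of all genes were called, 0.802% higher and 2.17% lower. The doxorubicin hearts lay above every control heart for 4 members (11.4%), namely Nbn, Pcna, Xrcc4 and Ddb1, where the share over all genes was 5.75%, and below every control heart for none of the members, where that share was 4.69%. Over all genes, 9.67% had an unadjusted p under 0.05 with a positive difference and 7.07% with a negative one, where the members gave 11.4% and none. The median difference, doxorubicin minus control, was 0.09 log2 over the 35 members and 0.0063 log2 over all genes. Of the members, 24 had a difference above 0 (68.6%), against 51.9% of all genes. The members were chosen with earlier results of these data known, so these shares describe the list and were not tested.

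The interval of the difference lay within 1.5-fold in both directions for 34 of the 35 members, and for 91.5% of all genes. Nbn was the exception. For 8 members the mean level was under 4.92 log2, the median over all probe sets, and the deposited values carry no detection calls. These were Atr, Brca1, Brca2, Chek1, Rad52, Ercc2, Msh3 and Chek2. Of the 27 members above that level, 26 had an interval within 1.5-fold.

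**Figure D1:**
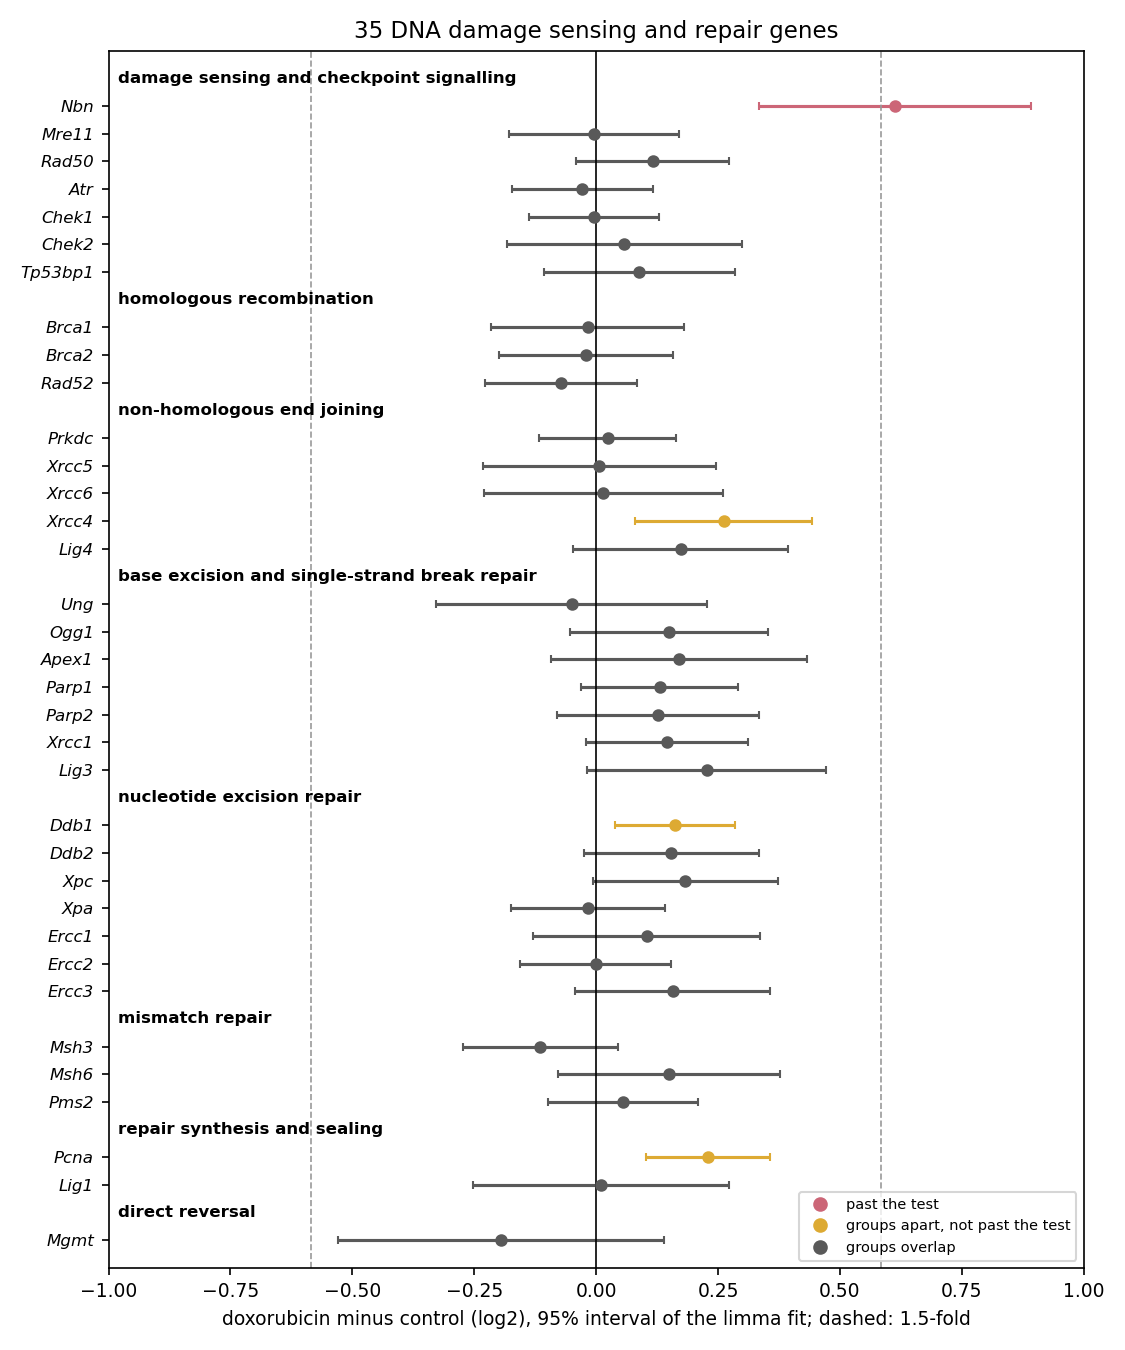
Doxorubicin minus control on the log2 scale for the 35 genes by pathway, with the 95% interval of the limma fit (4 hearts a group) and dashed lines at 1.5-fold. Nbn at 0.61 is the only point whose interval crosses a dashed line, and Pcna, Xrcc4 and Ddb1 are the other genes whose groups lay apart.

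The arrays were alike in quality with an exception in the hybridization controls. Pairs of arrays correlated at 0.988 to 0.996 within groups and at 0.985 to 0.993 between groups, across probe sets, whose values are not independent. Added bacterial and phage transcripts, read by 18 control probe sets, had a mean log2 level of 10.32 ± 0.17 on the control arrays and of 10.02 ± 0.08 on the arrays of treated hearts (SD, n = 4). By an exact permutation test p was 0.0286, the lowest that 4 against 4 arrays can give, and 0.0857 once adjusted for 3 measures of quality. The ranges did not overlap, at 10.21 to 10.57 on control and 9.97 to 10.13 on doxorubicin arrays. A fit with this level as a covariate, given with Nbn, therefore cannot cleanly separate the level from the treatment. Whether the level bears on the repair genes was not tested apart from that fit. The 9 measured cardiomyocyte markers, among them Myh6 and Tnnt2, averaged between 13.40 and 13.49 log2 in each heart, and so were present in the labelled tissue. Of the markers of 8 cell types and states, Tie1, an endothelial receptor gene, alone was called (0.34, SE 0.06, limma adjusted p = 0.0148), and no list differed between the groups as a whole (exact permutation p from 0.114 to 1). The atrial list ranged widely between single hearts, from 6.63 to 11.02 log2 in control and from 7.46 to 12.06 log2 in doxorubicin hearts. The fat list ranged from 6.42 to 7.15 log2 in control and from 6.41 to 8.38 log2 in doxorubicin hearts. Doxorubicin 4 was the highest heart for every measured atrial gene. It was also highest for the fat genes Ucp1 (9.54 log2), Adipoq, Plin1 and Cidea, but not for Fabp4 and Lep. The part of both lists in the results was not tested.

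The first group of genes senses broken or stalled DNA and signals to the cell cycle. Nbn encodes nibrin, the subunit of the MRN complex that recruits ATM to breaks. Its level was 7.19, 7.67, 7.36 and 7.08 log2 in control hearts 1 to 4 and 8.08, 7.97, 7.75 and 7.95 log2 in doxorubicin hearts 1 to 4. The groups did not overlap, but control 2 and doxorubicin 3 stood only 0.08 apart. The difference was 0.61 log2 (SE 0.12, n = 4 and 4, limma adjusted p = 0.0356), the 65th highest of the 14217 genes. Nbn also had the second largest spread between hearts of a group among the members, with a pooled SD of 0.21, after Mgmt with 0.25.

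The call of Nbn was lost without any one of 7 hearts, with adjusted p from 0.0507 to 0.122, and kept without control 2 (0.73, adjusted p = 0.00593). The difference was between 0.53 and 0.73 in these fits. Over all genes, the fits without 1 heart called between 248 and 512, against 422 with all hearts. With the level of the hybridization controls as a covariate the difference was 0.68 (SE 0.22, adjusted p = 0.517), and with an offset of 16 before the log2 it was 0.57 (adjusted p = 0.0554). Nbn was read by 1 probe set, so no other probe set bears on it.

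**Figure D2:**
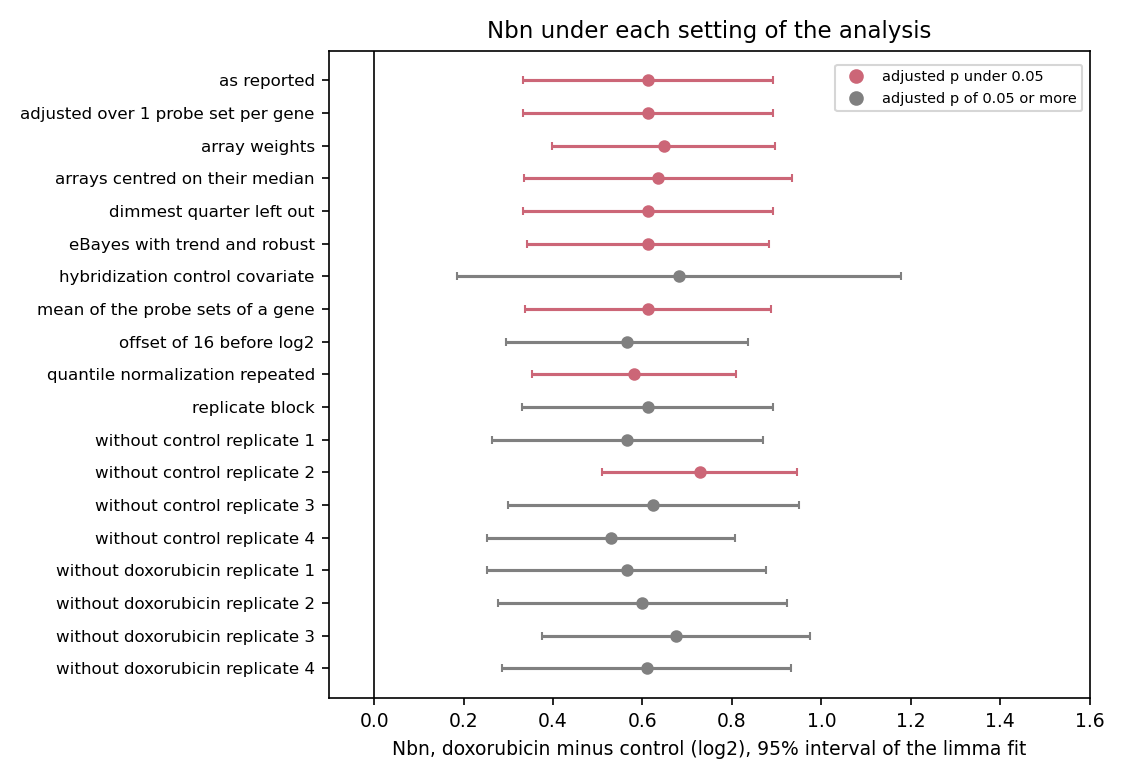
Nbn, doxorubicin minus control (log2), in the reported fit and under each of 18 alternatives, with the 95% interval of each limma fit. All points lie between 0.53 and 0.73, while the adjusted p (colour) falls on both sides of 0.05.

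The partners of nibrin stayed near their control level. Mre11, the nuclease of the complex, was at 6.07, 6.13, 6.06 and 5.95 log2 in control and 6.09, 5.95, 6.23 and 5.93 log2 in doxorubicin hearts 1 to 4, a difference of -0.0051 (SE 0.08, interval -0.18 to 0.17). Rad50, the ATPase that bridges the ends, stood at 5.62, 5.58, 5.44 and 5.52 log2 in control and at 5.50, 5.67, 5.75 and 5.70 log2 in doxorubicin hearts, a difference of 0.12 (SE 0.07, interval -0.04 to 0.27). Its other probe sets gave 0.05 and 0.06. The groups overlapped for both genes. Whether Nbn differed from them was tested on the log2 value of Nbn minus that of the partner in each heart. That value was 0.62 higher in doxorubicin hearts against Mre11 and 0.50 higher against Rad50, and neither test passed (exact two-sided permutation p = 0.0571 for each, adjusted p = 0.114 over 4 pairs of partners, where 0.0286 is the smallest p possible).

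**Figure D3:**
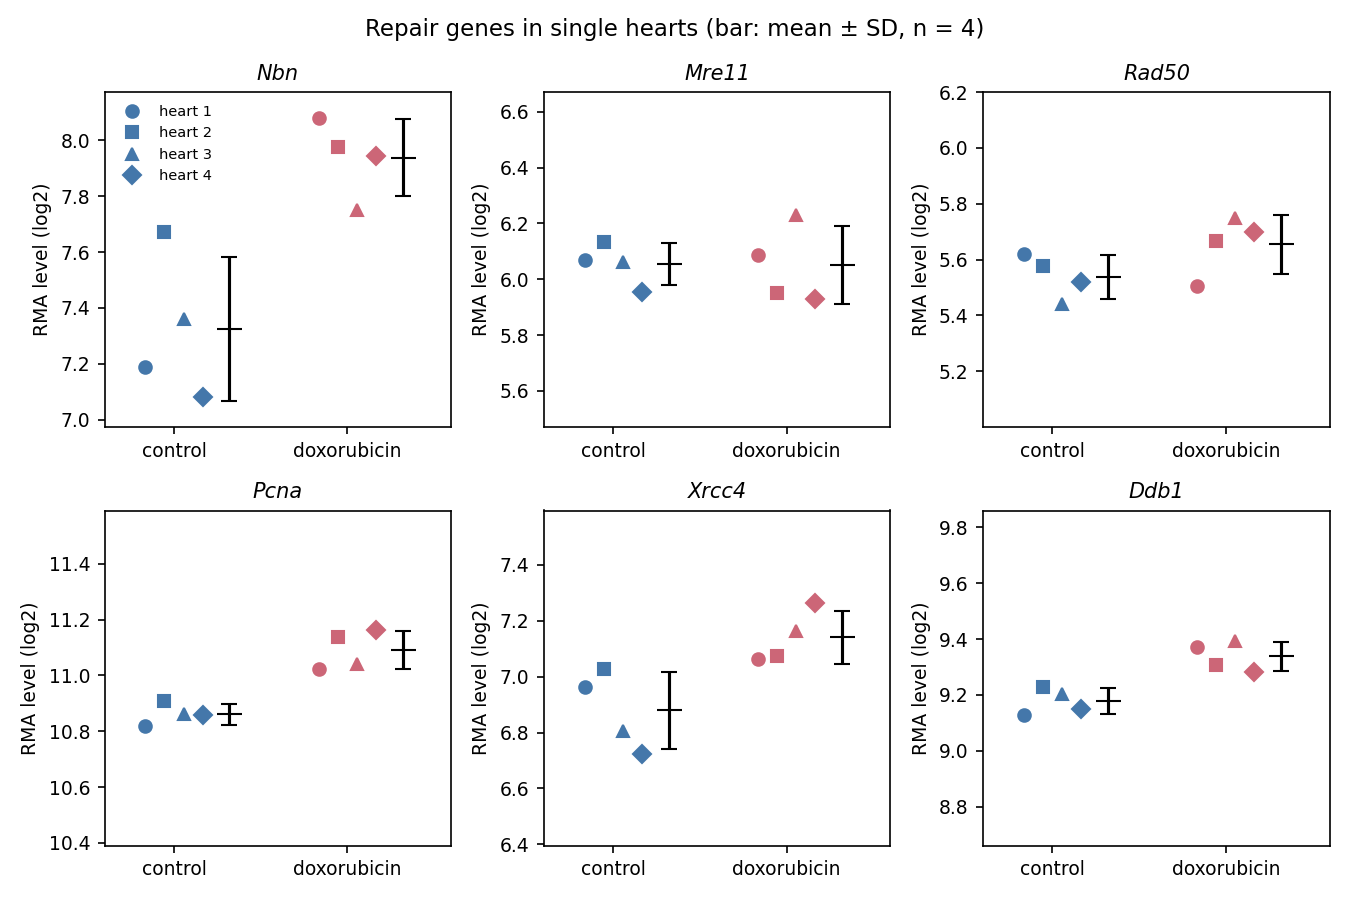
Log2 RMA levels of 6 genes in the 4 control and 4 doxorubicin hearts, with marker shapes for heart numbers and bars for the mean ± SD; each panel spans at least 1.2 log2. Nbn, Pcna, Xrcc4 and Ddb1 have every doxorubicin heart above every control heart, while Mre11 and Rad50 overlap.

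The kinases and mediators of the checkpoint showed no difference past the test. Atr, the kinase of stalled forks, had a difference of -0.03 (SE 0.06) and lay at 3.77 to 3.99 log2 over all hearts, under 4.16 log2, the level of the dimmest 25% of probe sets. Its effector kinase Chek1 (-0.0051, SE 0.06) and the ATM effector Chek2 (0.06, SE 0.11) were also under 4.92 log2 on average. Tp53bp1, which encodes a chromatin protein that steers breaks toward end joining, was at 7.59 to 7.89 log2 in control and 7.80 to 8.06 log2 in doxorubicin hearts, a difference of 0.09 (SE 0.09). Its dimmer second probe set stood at -0.05.

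Genes of homologous recombination lay under 4.92 log2 in every heart. Rad52, which anneals single strands, stood at 4.48, 4.54, 4.53 and 4.48 log2 in control and at 4.54, 4.29, 4.55 and 4.38 log2 in doxorubicin hearts, a difference of -0.07 (SE 0.07, limma adjusted p = 0.752). Brca1, a scaffold of the pathway, had a difference of -0.02 (SE 0.09) and Brca2, the loader of the recombinase, of -0.02 (SE 0.08). The control and doxorubicin hearts overlapped for all 3 genes.

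In non-homologous end joining, which ligates breaks directly, all 5 members had differences above 0 and none passed the test. Over all genes, 51.9% had a difference above 0. Xrcc4, the scaffold of the ligase, was at 6.96, 7.03, 6.81 and 6.72 log2 in control and at 7.06, 7.07, 7.16 and 7.27 log2 in doxorubicin hearts. The groups lay 0.04 apart, and the difference was 0.26 (SE 0.08, limma adjusted p = 0.166, unadjusted p = 0.00953). A second, dimmer Xrcc4 probe set stood at 0.01, and the mean of both gave 0.14. Lig4, the ligase that Xrcc4 holds, was at 5.32 to 5.76 log2 in control and 5.64 to 5.89 log2 in doxorubicin hearts, a difference of 0.17 (SE 0.10). The value of Xrcc4 minus Lig4 differed by 0.09 between the groups (exact permutation p = 0.6). The break-binding Ku subunits Xrcc5 (0.0068, SE 0.11) and Xrcc6 (0.01, SE 0.11) and the kinase Prkdc (0.02, SE 0.06) overlapped between groups. Their intervals were -0.23 to 0.25, -0.23 to 0.26 and -0.12 to 0.16, and their signs changed in 5, 3 and 1 of the 18 alternatives.

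Base excision and single-strand break repair removes oxidized or deaminated bases and seals nicks. Of its 7 members, 6 had differences above 0, between 0.13 and 0.23, where 51.9% of all genes were above 0. None passed the test. Lig3, the ligase that closes these nicks also in mitochondria, stood at 6.96, 7.30, 7.14 and 7.19 log2 in control and 7.43, 7.64, 7.27 and 7.16 log2 in doxorubicin hearts. The groups overlapped, with doxorubicin 3 and 4 inside the control range, and the difference was 0.23 (SE 0.11, limma adjusted p = 0.414). A second Lig3 probe set gave 0.32 (SE 0.11, unadjusted p = 0.0161, limma adjusted p = 0.217).

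The enzymes that find and cut the damaged base gave small differences. Ogg1, the glycosylase of oxidized guanine, was at 5.57 to 5.68 log2 in control and 5.62 to 6.06 log2 in doxorubicin hearts (0.15, SE 0.09). Apex1, the endonuclease that cuts at the emptied site, was at 7.42 ± 0.06 log2 in control and 7.59 ± 0.27 log2 in doxorubicin hearts (SD, n = 4; difference 0.17, SE 0.12), with doxorubicin 4 highest at 7.91 and doxorubicin 2 lowest at 7.28 log2. Its second probe set, under 4.92 log2, stood at -0.01. Ung, the uracil glycosylase, had a difference of -0.05 (SE 0.12), the only member of the pathway under 0. The break sensor Parp1 stood at 9.68 to 9.92 log2 in control and 9.87 to 10.05 log2 in doxorubicin hearts (0.13, SE 0.07), with 3 doxorubicin hearts above every control heart. Parp2, its relative, had a difference of 0.13 (SE 0.09) and the scaffold Xrcc1 of 0.14 (SE 0.07).

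Nucleotide excision repair cuts out bulky lesions. Ddb1, the adaptor of the damage-binding ubiquitin ligase, was at 9.13, 9.23, 9.20 and 9.15 log2 in control and at 9.37, 9.31, 9.39 and 9.28 log2 in doxorubicin hearts. The groups lay 0.06 apart and the difference was 0.16 (SE 0.05, 1.12-fold, limma adjusted p = 0.212, unadjusted p = 0.0153). The other Ddb1 probe sets had differences of 0.18 (SE 0.07) and 0.11 (SE 0.05), which did not pass. Ddb2, the lesion-binding partner, was at 5.21 to 5.40 log2 in control and 5.33 to 5.62 log2 in doxorubicin hearts (0.15, SE 0.08), while its second probe set stood at -0.02. Ddb1 minus Ddb2 differed by 0.0074 between the groups (exact permutation p = 0.886).

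The other members of the pathway did not pass either. Xpc, the sensor of distorted helices, had the largest difference of the pathway and stood at 5.24 to 5.57 log2 in control and 5.45 to 5.71 log2 in doxorubicin hearts (0.18, SE 0.08, limma adjusted p = 0.39). The helicase Ercc3 of TFIIH, a factor shared with transcription, had a difference of 0.16 (SE 0.09) and the nuclease subunit Ercc1 of 0.10 (SE 0.10). Xpa (-0.02, SE 0.07), which checks the lesion, and the TFIIH helicase Ercc2 (-0.00086, SE 0.07), whose level was under 4.92 log2, lay near 0.

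Mismatch repair corrects replication errors. Msh3, which binds small loops, was at 4.52, 4.65, 4.53 and 4.51 log2 in control and at 4.45, 4.50, 4.53 and 4.27 log2 in doxorubicin hearts. In 3 doxorubicin hearts it was below every control heart, with a difference of -0.11 (SE 0.07, limma adjusted p = 0.559) at a level under 4.92 log2. Msh6, which binds base mismatches, had a difference of 0.15 (SE 0.10), with doxorubicin 4 highest at 6.35 log2. Pms2, the endonuclease subunit, stood at 0.05 (SE 0.07).

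Pcna encodes the sliding clamp that holds polymerases on DNA in replication and in repair synthesis, and it is a known p53 target. It was at 10.82, 10.91, 10.86 and 10.86 log2 in control and at 11.02, 11.14, 11.04 and 11.16 log2 in doxorubicin hearts. The groups lay 0.11 apart, which exceeds the SD of 0.04 in control and 0.07 in doxorubicin hearts. The difference was 0.23 (SE 0.06, 1.17-fold, limma adjusted p = 0.0805, unadjusted p = 0.00249). Of 18 alternatives Pcna was past the test in 1, with an offset of 16 added before the log2 (0.23, adjusted p = 0.0323), and the adjusted p reached 0.834 with the hybridization covariate (0.19). Lig1, the replicative ligase that seals repair patches, was at 6.24 to 6.81 log2 in control and 6.36 to 6.67 log2 in doxorubicin hearts, a difference of 0.01 (SE 0.12), and its second probe set stood at -0.11. Of 19 measured markers of proliferating cells none was called in limma, and 1 (Mcm2, 0.19) had an unadjusted p under 0.05. Their mean level was 4.80 to 4.87 log2 in control and 4.86 to 4.92 log2 in doxorubicin hearts (exact permutation p = 0.114), and 13 of the 19 lay under 4.92 log2.

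Mgmt, which removes alkyl groups from guanine without cutting DNA, varied most among the members between hearts of a group. It was at 5.92, 5.40, 5.34 and 5.44 log2 in control and at 5.30, 5.27, 5.09 and 5.67 log2 in doxorubicin hearts. Control 1 and doxorubicin 4 stood high in their groups, and the difference of -0.19 (SE 0.15, limma adjusted p = 0.663) was within the spread. Its interval was -0.53 to 0.14, with a lower end close to 1.5-fold.

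The promoters of Pcna, Ddb1 and Xrcc4 are shown because these members, with Nbn, were the ones whose hearts lay apart by group. RefSeq promoters of the GRCr8 assembly were held for 31 of the 36 genes, namely Atm and 30 of the 35 measured. None was held for Nbn, Chek2, Ddb2, Prkdc and Xpa. Each line gives the 250 bases before the annotated start, 5′ to 3′ on the strand of the gene, with 3 motifs in capitals, on either strand. The first is the GC box, spelled GGGCGG and bound by Sp1. The next is the CCAAT box, named after its letters. The last is the core bound by ETS factors, spelled CCGGAAG.
Pcna promoter (chr3:139955821-139956070, minus strand): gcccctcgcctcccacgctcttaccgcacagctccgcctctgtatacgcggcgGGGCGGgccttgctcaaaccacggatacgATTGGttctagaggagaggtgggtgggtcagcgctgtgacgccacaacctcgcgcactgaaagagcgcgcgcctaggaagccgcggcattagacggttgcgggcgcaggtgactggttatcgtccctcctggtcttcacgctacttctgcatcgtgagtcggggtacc
Ddb1 promoter (chr1:216677560-216677809, plus strand): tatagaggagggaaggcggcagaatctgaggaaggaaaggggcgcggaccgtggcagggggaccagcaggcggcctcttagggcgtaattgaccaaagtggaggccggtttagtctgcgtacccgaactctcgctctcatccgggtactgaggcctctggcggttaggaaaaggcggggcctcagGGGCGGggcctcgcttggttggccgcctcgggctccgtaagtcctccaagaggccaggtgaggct
Xrcc4 promoter (chr2:22932814-22933063, minus strand): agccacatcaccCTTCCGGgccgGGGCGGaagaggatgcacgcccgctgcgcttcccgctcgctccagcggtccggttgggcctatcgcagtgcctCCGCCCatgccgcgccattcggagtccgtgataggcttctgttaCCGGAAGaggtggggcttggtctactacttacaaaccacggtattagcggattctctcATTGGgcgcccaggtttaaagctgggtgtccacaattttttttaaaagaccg

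Pcna has 1 GC box and 1 CCAAT box, Ddb1 has 1 GC box, and Xrcc4 has 2 GC boxes, 1 CCAAT box and 2 ETS cores. A GC box was found in 23 of the 31 member promoters (74.2%) and in 30.5% of all 33469 promoters of the table. An ETS core was in 6 of 31 (19.4%) against 7.27%, and a CCAAT box in 10 of 31 (32.3%) against 34.0%. The median G and C content was 60.4% in the member promoters and 51.2% in all, and the shares were not compared at equal base content. Members gave 1 promoter per gene, while every promoter held was counted for all, with no choice of 1 per gene or of genes on the array. The CRE (TGACGTCA) and the E2F site (TTTCGCGC) were in none of the 31 windows and in 1.59% and 0.248% of all promoters. The p53 half-site was in 1 of 31 windows and in 6.64% of all, and in none of the 3 printed. These are matches of letters in a window of 250 bases and were not tested for binding. Sites outside the window were not looked for.

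Seen heart by heart, the members leaned one way by group, while the groups overlapped for 31 of the 35 single genes. The median deviation of the 35 genes from their own mean over 8 hearts was -0.04, -0.03, -0.07 and -0.0020 log2 in control hearts 1 to 4 and 0.04, 0.06, 0.03 and 0.03 log2 in doxorubicin hearts 1 to 4. Over all genes the same medians lay between -0.01 and 0.0097 log2. Each mean was taken over both groups, so a gene above it in doxorubicin hearts tends to lie below it in control hearts. Control 1 held the lowest of the 8 values for 12 of the 35 members, and doxorubicin 3 held the highest for 9. Control 1 was low for Lig3, Lig4, Parp2 and Lig1, but highest for Mgmt, Ercc1 and Chek2. The usual spread of the members within a group (median pooled SD 0.13) was like that over all genes (0.12).

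**Figure D4:**
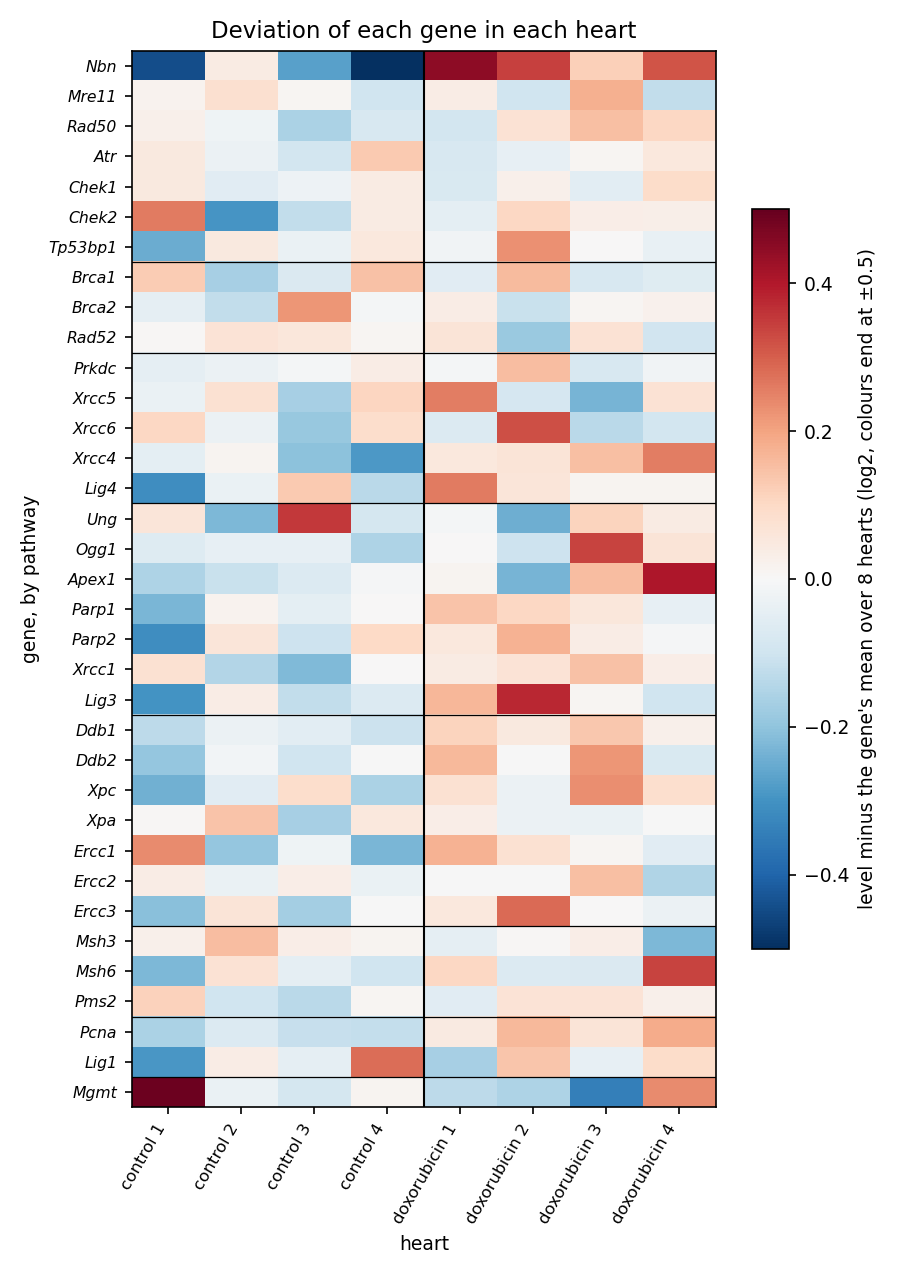
Level of each of the 35 genes in each heart minus the mean of that gene over the 8 hearts (log2, colours end at ±0.5), with lines between pathways and between groups. The row of Nbn changes from blue to red between the groups, with control 2 near 0, while most rows mix both colours within a group.

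Of 82 other genes of DNA repair, 70 were measured, and 1 rose, 1 fell and 68 did not pass in limma, while an unadjusted p under 0.05 was met by 6 genes above 0 and 3 below. The gene that rose and the gene that fell are each 1.43% of those measured, beside 0.802% of all genes called higher and 2.17% called lower. The counts at the unadjusted p are 6 and 3 of 70, beside 9.67% and 7.07% of all genes. The doxorubicin hearts lay above every control heart for 3 of the 70 (4.29%), namely Rpa1, Rpa2 and Ccnh, beside 5.75% of all genes. They lay below every control heart for 2 of the 70, Rbbp8 and Ercc6, beside 4.69% of all genes. The median difference of the 70 genes was 0.05 log2. Rbbp8 encodes CtIP, which turns on the nuclease of the MRN complex, and was at 5.89, 5.33, 5.36 and 5.25 log2 in control and at 4.87, 4.71, 4.59 and 4.98 log2 in doxorubicin hearts. The groups lay 0.26 apart, and Rbbp8 fell by 0.67 on the log2 scale (SE 0.14, 1.59-fold, limma adjusted p = 0.0429).

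Rpa2 encodes a subunit of RPA, the complex that coats single-stranded DNA. It was at 6.40, 6.28, 6.31 and 6.32 log2 in control and at 6.68, 6.53, 6.61 and 6.61 log2 in doxorubicin hearts. The groups lay 0.14 apart, and Rpa2 rose by 0.28 (SE 0.06, 1.22-fold, limma adjusted p = 0.0342). Rpa1, the largest subunit, was at 8.39, 8.59, 8.60 and 8.54 log2 in control and at 8.86, 8.91, 8.73 and 8.69 log2 in doxorubicin hearts, also apart, with a difference of 0.27 (SE 0.07) that did not pass (adjusted p = 0.114). Rpa3, named after its values were seen, stood at 6.16 to 6.94 log2 in control and 6.71 to 6.98 log2 in doxorubicin hearts (0.31, SE 0.14, limma adjusted p = 0.386). Control 2 was within the doxorubicin range for Rpa3.

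The calls of Rbbp8 and Rpa2 were also not kept in every fit. Each was lost without any one of 7 hearts, with adjusted p up to 0.129 for Rbbp8 and 0.118 for Rpa2. When single hearts were left out, the difference was between -0.74 and -0.53 for Rbbp8 and between 0.26 and 0.31 for Rpa2. Rbbp8 was kept without control 1 (-0.53, adjusted p = 0.0265), the heart with its highest level, and Rpa2 was likewise kept without control 1 (0.30, adjusted p = 0.0379). With the hybridization covariate the differences were -0.66 (adjusted p = 0.663) and 0.31 (adjusted p = 0.52). Rbbp8 was not past the test with median centring (adjusted p = 0.0539), the offset (0.0814) or repeated quantile normalization (0.0553). Rpa2 was not past it with a trended and robust eBayes (adjusted p = 0.139) or repeated quantile normalization (0.0698). Rbbp8, Rpa1, Rpa2 and Rpa3 were each read by 1 probe set.

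**Figure D5:**
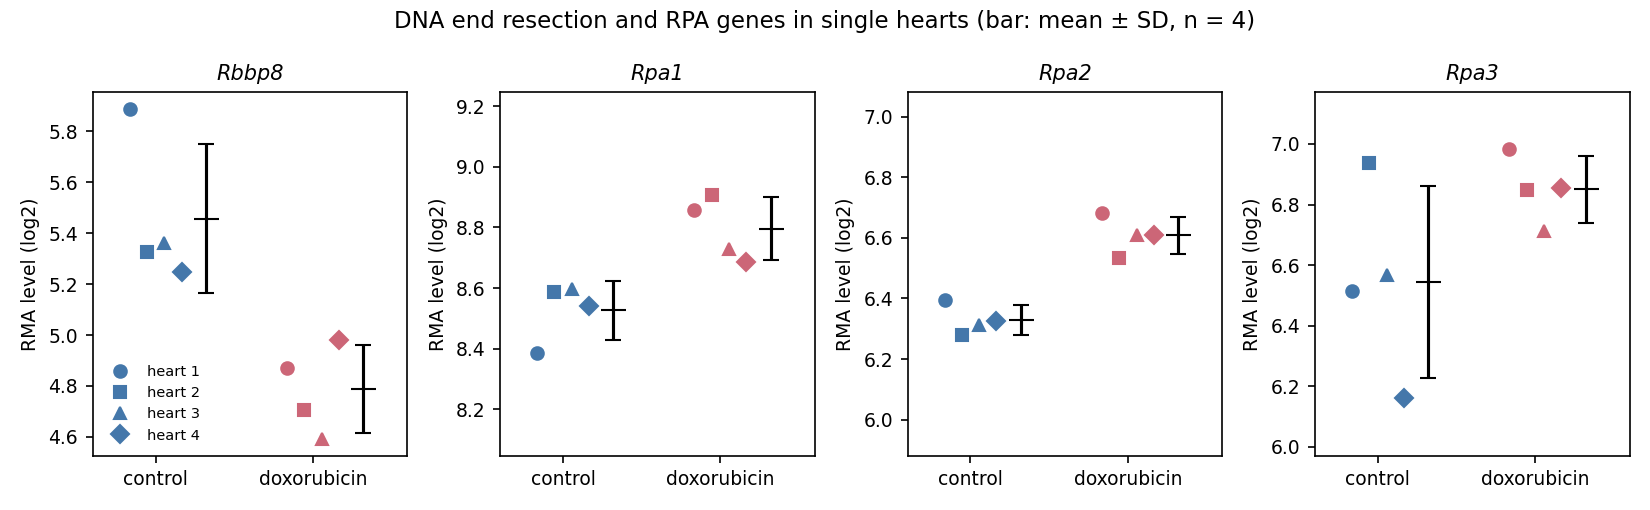
Log2 RMA levels of Rbbp8, Rpa1, Rpa2 and Rpa3 in the 4 control and 4 doxorubicin hearts, with bars for the mean ± SD; each panel spans at least 1.2 log2. The groups lie apart for Rbbp8, Rpa1 and Rpa2 and overlap for Rpa3 through control 2.

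Among the other genes of the list, none passed. Cdk7, the kinase of TFIIH, had a difference of 0.44 (SE 0.13, limma adjusted p = 0.135). Control 2 stood at 6.89 log2, inside the doxorubicin range of 6.86 to 7.08 log2, and without it Cdk7 was called (0.56, adjusted p = 0.0153). It was not called without any one of the other 7 hearts or under the 10 other alternatives, with an adjusted p of up to 0.942 with the hybridization covariate (0.23). Polb, the polymerase of base excision repair, had a difference of 0.33 (SE 0.12, limma adjusted p = 0.235), and its second probe set of 0.42 (SE 0.11, limma adjusted p = 0.108). Rfc5, a subunit of the loader of the Pcna clamp, had a difference of 0.22 (SE 0.08, limma adjusted p = 0.255) and a second probe set at 0.07. H2ax, the histone variant marked at breaks, was chosen after its values were seen. It stood at 7.86 to 8.19 log2 in control and 7.74 to 8.02 log2 in doxorubicin hearts (-0.23, SE 0.09, limma adjusted p = 0.294). A second, dimmer H2ax probe set stood at -0.11 (SE 0.09).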

How the data were processed

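The deposited table holds an intensity for each of 31099 probe sets on 8 arrays. The authors made these intensity values with RMA, per the submitters' processing notes, for which the sources used here name no software version or probe set definition. The values were on a linear scale (array medians 29.9 to 31.0), so log2 was taken with no offset. Since RMA gives the arrays like distributions, it hides a shift common to most genes. Arrays have no sequencing depth, and the number of arrays limits the precision.

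After 57 control probe sets were set aside, 31042 were tested. The platform annotation gave a single symbol to 20826, several to 436 and none to 9780, and all symbols whose gene ID was found in RefSeq (20758) matched its current ones. Where a gene had several probe sets, the one with the highest mean over 8 arrays was read. Groups came from the sample titles, where each heart is numbered as a biological replicate. The 2 groups were compared in R 4.3.3 with limma 3.58.1 (lmFit and eBayes, no covariate), two-sided, with Benjamini-Hochberg adjustment over all 31042 probe sets and a threshold of 0.05. Differences are doxorubicin minus control, with the standard error (SE) and the unadjusted 95% interval of the fit. Single values were compared by exact permutation over 70 draws of 4 of 8 hearts. The 4 pairs of partners were chosen after the data were seen.

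The members and gene lists were chosen with earlier results of these data known. Full statistics were given for members past the test, at an unadjusted p under 0.05, with groups apart, or with the smallest p of a pathway, and for called other repair genes and the next 4 by p. The fit was also run on data simulated with independent noise. The outcome is not given here, and no result above rests on it. Python 3.11.15 with matplotlib 3.10.9 drew the figures. Alternatives were median centring, quantile normalization repeated, an offset of 16, leaving out the dimmest 25% of probe sets, a trended and robust eBayes, averaging a gene's probe sets, array weights, adjustment over genes, a hybridization covariate, a replicate block and leaving out each heart.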

Additional observations from a re-analysis of the deposited data

Results flagged for a closer look

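In 4 of 70 groups of 4 hearts (35 genes in 2 groups), a single heart stood far from the other 3 by a test on gaps that flags about 1 in 20 groups by chance. In doxorubicin heart 2 the level was 8.06 log2 for Tp53bp1, where the other doxorubicin hearts lay at 7.80 to 7.83 log2. In the same heart it was 6.08 log2 for Xrcc6, against 5.63 to 5.69 log2 in the others. It was 4.22 log2 there for Brca1, where the lowest doxorubicin heart stood at 3.98 log2. Brca1 was among the dimmest 25% of probe sets. Control heart 2 stood at 4.65 log2 for Msh3, where the other control hearts lay at 4.51 to 4.53 log2.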

How the results depend on the processing

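Of the 18 alternatives, the hybridization covariate moved the values most. It moved 10 members by more than their pooled SD, among them Lig4 (0.17 to 0.44), Xpc (0.18 to 0.32), Xrcc1 (0.14 to 0.0075), Ung (-0.05 to 0.29) and Brca2 (-0.02 to 0.20), and the adjusted p of Nbn, Rpa2 and Rbbp8 to between 0.517 and 0.663. The groups did not overlap in the level of the hybridization controls, so the covariate fit cannot cleanly separate that level from doxorubicin. The cause of these moves was not tested. Averaging probe sets moved Xrcc4 (0.26 to 0.14). The median difference of the members was 0.044 with the hybridization covariate, between 0.041 (without doxorubicin 2) and 0.10 (without control 4) when single hearts were left out, and at most 0.11 (median centring). Of 35 members, 20 kept the sign of their difference under every alternative, and none of the other 15 had a reported difference over 0.12 in size. The number of members called higher was 0 with the hybridization covariate and 0 with the replicate block, and between 0 and 1 when single hearts were left out. It was 1 with the offset, where Pcna was called (adjusted p = 0.0323) and Nbn was not (0.57, adjusted p = 0.0554). The number called lower was 0 throughout.

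The number of other repair genes called higher was 0 with the trended and robust eBayes, the hybridization covariate, the repeated quantile normalization and the replicate block, and between 0 and 1 without single hearts. The number called lower was 0 with median centring, the offset, the hybridization covariate, the repeated quantile normalization and the replicate block, and likewise between 0 and 1 without single hearts. Over all genes, 60 were called with the hybridization covariate and 305 with the replicate block, against 422.

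The labels state no pairing of hearts with the same number. Their deviations from the group means correlated at 0.06, -0.04, -0.03 and -0.18 over probe sets. For hearts with different numbers these correlations ran from -0.43 to 0.31, so the values do not decide whether hearts were paired. With the replicate block Nbn stood at 0.61 (adjusted p = 0.0649), Rbbp8 at -0.67 (adjusted p = 0.0525) and Rpa2 at 0.28 (adjusted p = 0.0823). The cause of these lost calls was not tested. Background was not measured here, and the values of the 8 members under 4.92 log2 have no detection call.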
